A study of Mus musculus with 6 samples.

Results

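The genes described here are 10 myeloid C-type lectins, measured in macrophages sorted from mouse heart allografts. They are the DC-SIGN homologues Cd209a, Cd209b, Cd209d and Cd209g, the Mincle and dectin-2 group Clec4e, Clec4d and Clec4n, the galactose-type lectins Clec10a and Mgl2, and the inhibitory receptor Clec12a. The list was given by gene name, with no threshold on a measured value, but it was chosen with earlier results of these data known. All 10 were found among the 22180 genes of the array with an unambiguous probe set, and the brightest probe set stood for each gene. In the treated group, C57BL/6 recipients of BALB/c hearts had been given mTORi-HDL, a high-density lipoprotein particle loaded with an mTOR inhibitor, at 5 mg/kg on days 0, 2 and 5. In the untreated group, recipients of the same strains rejected their grafts. Cells that had infiltrated the hearts were sorted on day 6, with 3 samples in each group and 1 array per sample. None of these samples came from mice given the lipoprotein without the inhibitor, and the labels do not state the sort markers or whether a sample pooled several mice. If samples were not from separate recipients, the p-values measure only the spread between arrays.

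C-type lectin receptors bind sugars or other ligands on microbes and on damaged cells through a shared fold. Mincle and dectin-2 pair with the Fc receptor gamma chain, which recruits the kinase Syk and the adaptor CARD9 to switch on cytokine and chemokine genes. CLEC12A instead carries an inhibitory motif that recruits phosphatases. Human DC-SIGN is a mannose- and fucose-binding receptor of dendritic cells and macrophages, and the mouse has a cluster of related Cd209 genes in its place.

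All values are log2 expression as summarised by RMA, a method that corrects background, equalises the arrays and combines the probes of a set. The table holds no detection call, so odorant and vomeronasal receptor genes were used as a measure of dim signal. The 95th percentile of these 1394 genes lay between 4.38 and 5.38 on the 6 arrays. One array stood apart: mTORi-HDL 1 had an SD of 1.68 over all probe sets, against 2.04 to 2.09 on the other 5. It correlated with those at r = 0.71 to 0.74 across probe sets, where they correlated with each other at 0.89 to 0.91. The median of the receptor genes was 3.18 on mTORi-HDL 1 and 2.35 to 2.46 on the other arrays, so dim genes read higher there. Results for the 10 lectins, and for some of the other genes and lists, are therefore also given without mTORi-HDL 1. The macrophage marker Cd68 had 9.47, 10.87 and 10.87 on the mTORi-HDL arrays, against 9.60, 9.70 and 8.78 on the untreated arrays. The growth factor receptor gene Csf1r, a macrophage marker, had 5.00, 8.75 and 9.08 on the mTORi-HDL arrays, against 8.19, 7.54 and 7.93 on the untreated arrays. Adgre1, an adhesion receptor of mouse macrophages, had 4.93, 7.42 and 8.72 on the mTORi-HDL arrays, against 7.12, 6.05 and 6.84 on the untreated arrays. The T cell gene Cd3e was also bright, at 6.46, 9.67 and 9.63 on the mTORi-HDL arrays, against 10.85, 10.37 and 10.50 on the untreated arrays.

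Clec4d and Clec12a had the smallest p-values among the 10 lectins, both with higher means under mTORi-HDL, and neither passed the test over all genes. Clec4n had a higher mean with mTORi-HDL too, but mTORi-HDL 1 lay below untreated 2. Clec4e was bright in both groups, and its difference changed sign with 1 array left out. The 4 Cd209 genes and the galactose-type lectins had log2 fold changes between 0.06 and 0.67, and of these 6 genes only Cd209a exceeded the 95th percentile of the odorant and vomeronasal receptor genes on any array. In limma's test 0 of the 10 passed a Benjamini-Hochberg adjusted p of 0.05, where 0.0% of all genes did. At an unadjusted p under 0.05 there were 2 of 10, both higher, where 4.64% of all genes were at this level, 1.57% as higher and 3.07% as lower. The groups did not overlap for 1 of 10, which was higher, against 10.9% of all genes in either direction and 5.37% as higher. Of the 10 fold changes 9 were above 0, as were 58.2% of those of all genes, and the median log2 fold change was 0.32 for the lectins and 0.08 for all genes. Fewer cells of a type and less RNA per cell cannot be told apart in these bulk samples.

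**Figure D1:**
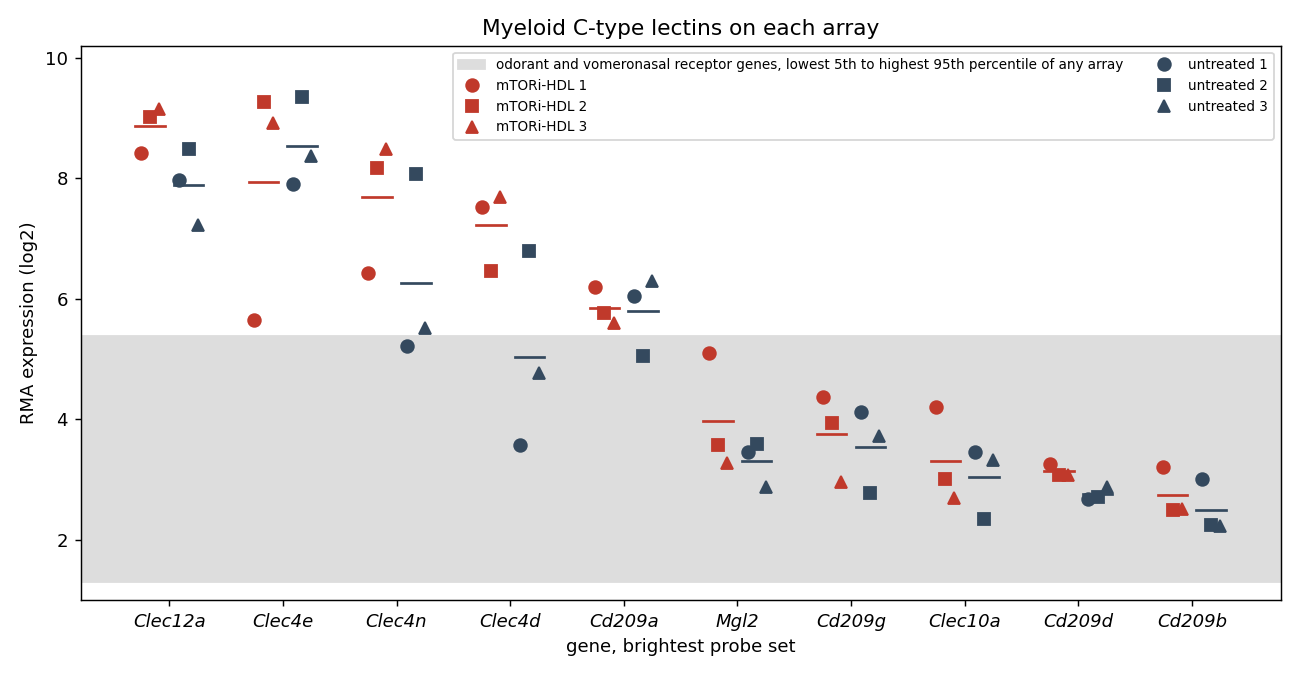
Log2 expression of the 10 lectin genes (x axis) on each array, with mTORi-HDL arrays in red and untreated arrays in dark blue, symbols for the replicate number, lines for the group means and a grey band for the range from the lowest 5th to the highest 95th percentile of odorant and vomeronasal receptor genes. Clec12a, Clec4e, Clec4n and Clec4d reach above the band, and Mgl2, Cd209g, Clec10a, Cd209d and Cd209b lie inside it, while Cd209a lies above it on all arrays except untreated 2.

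The start regions of 4 genes are shown, those of Clec4d, Clec4e and Clec12a, on which the results below turn, and that of Cd209a, the brightest of the 4 listed Cd209 genes. Each is the RefSeq window from 250 bases before to 50 bases after an annotated transcript start, build GRCm38.p6, on the strand of the gene. Capitals mark matches on either strand to GAGGAA (the core bound by PU.1, a factor of myeloid cells), TTGNNNAA (letters of C/EBP factor sites) and TGANTCA (AP-1).
Clec4d, chr6:123261857-123262156, plus strand: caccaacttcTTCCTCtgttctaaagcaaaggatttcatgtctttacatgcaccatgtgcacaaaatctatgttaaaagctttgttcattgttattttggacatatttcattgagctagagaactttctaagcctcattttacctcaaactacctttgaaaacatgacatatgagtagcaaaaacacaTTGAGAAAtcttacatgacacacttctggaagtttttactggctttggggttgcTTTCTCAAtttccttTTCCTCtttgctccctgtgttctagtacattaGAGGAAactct
Clec4e, chr6:123289822-123290121, minus strand: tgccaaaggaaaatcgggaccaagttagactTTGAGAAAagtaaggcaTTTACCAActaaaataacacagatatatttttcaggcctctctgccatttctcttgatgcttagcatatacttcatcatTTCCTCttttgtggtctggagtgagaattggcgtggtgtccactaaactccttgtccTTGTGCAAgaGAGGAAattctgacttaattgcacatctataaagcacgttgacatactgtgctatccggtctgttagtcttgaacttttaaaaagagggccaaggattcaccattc
Clec12a, chr6:129349994-129350293, plus strand: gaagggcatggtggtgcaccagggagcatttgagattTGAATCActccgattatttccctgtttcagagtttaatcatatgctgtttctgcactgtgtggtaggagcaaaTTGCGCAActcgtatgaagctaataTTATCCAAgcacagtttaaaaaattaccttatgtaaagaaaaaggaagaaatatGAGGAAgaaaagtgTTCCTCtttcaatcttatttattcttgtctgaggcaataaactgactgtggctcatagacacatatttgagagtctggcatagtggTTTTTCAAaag
Cd209a, chr8:3748935-3749234, minus strand: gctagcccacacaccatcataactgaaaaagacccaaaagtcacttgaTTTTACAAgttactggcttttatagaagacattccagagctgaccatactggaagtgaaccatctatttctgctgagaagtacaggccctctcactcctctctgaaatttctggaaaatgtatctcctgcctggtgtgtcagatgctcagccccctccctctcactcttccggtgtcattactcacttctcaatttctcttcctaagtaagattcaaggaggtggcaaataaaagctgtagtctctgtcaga

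No window was available for Clec4n, on which the results below also turn, or for Clec10a. The PU.1 core was in the windows of Clec4d, Clec4e and Clec12a and in 5 of the 8 member windows available, against 28.3% of 32851 windows of all genes. The C/EBP letters were in 7 of 8, against 36.7%, and the AP-1 letters were in 2 of 8, Clec12a and Cd209g, against 7.81%. A STAT palindrome and an NF-kB site, searched with 1 spelling each, were in 0 of 8, against 6.95% and 0.411% of all windows. A match is of letters alone and describes no binding. In RefSeq's gene order Clec4n, Clec4d and Clec4e follow each other on chromosome 6, Mgl2 and Clec10a are neighbours on chromosome 11, and the 4 Cd209 members lie in one cluster on chromosome 8.

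Clec4d encodes MCL, a receptor for mycobacterial glycolipid that assembles with Mincle. It had 7.52, 6.46 and 7.69 on mTORi-HDL arrays 1, 2 and 3, against 3.57, 6.79 and 4.77 on untreated arrays 1, 2 and 3. All 3 treated values lay above untreated 1 and 3, while untreated 2 lay above mTORi-HDL 2, so the groups overlapped. The means were 7.23 ± 0.67 with mTORi-HDL and 5.04 ± 1.63 without treatment (SD, n = 3 each). The log2 fold change was 2.18 ± 0.78 (SE), or 4.54 times, with a 95% confidence interval of 1.28 to 16.1 times (limma, unadjusted p = 0.0251, adjusted p = 0.890). Ranked by p it was gene 509 of 22180. On untreated 1 the gene lay below the 95th percentile of the receptor genes, and on the other 5 arrays above it. Without mTORi-HDL 1 the log2 fold change was 2.03 ± 0.89 (SE; limma, unadjusted p = 0.0579, adjusted p = 0.730).

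Clec4n encodes dectin-2, which binds mannans of fungi. It had 6.43, 8.18 and 8.48 on the mTORi-HDL arrays, against 5.22, 8.08 and 5.52 on the untreated arrays. As for Clec4d, untreated 2 lay far above the other untreated arrays. Here mTORi-HDL 1 lay below it, so the groups overlapped. The means were 7.70 ± 1.11 with mTORi-HDL and 6.27 ± 1.57 without treatment (SD, n = 3 each). The log2 fold change was 1.43 ± 0.85 (SE; limma, unadjusted p = 0.133, adjusted p = 0.890), with a 95% interval of 0.683 to 10.6 times. Without mTORi-HDL 1 it was 2.06 ± 0.81 (SE; limma, unadjusted p = 0.0403, adjusted p = 0.686), and both remaining treated arrays lay above all 3 untreated ones.

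Clec4e encodes Mincle, a sensor of mycobacterial cord factor and of material released by dying cells. It had 5.64, 9.27 and 8.92 on the mTORi-HDL arrays, against 7.91, 9.35 and 8.37 on the untreated arrays. Untreated 2 was the highest of all 6 and mTORi-HDL 1 by far the lowest. The means were 7.94 ± 2.00 with mTORi-HDL and 8.54 ± 0.73 without treatment (SD, n = 3 each). The log2 fold change was -0.60 ± 0.93 (SE; limma, adjusted p = 0.909), and its 95% interval of 0.146 to 2.99 times includes changes in both directions. Without mTORi-HDL 1 the sign turned, to 0.55 ± 0.43 (SE; limma, adjusted p = 0.880). Across the 3 untreated arrays each of the 3 Clec4 genes was highest on untreated 2 and lowest on untreated 1. The difference between these 2 arrays was 3.22 for Clec4d, 2.85 for Clec4n and 1.44 for Clec4e. The same order of the untreated arrays was found for 3161 of all 22180 genes. It was found for 2 of the 27 other myeloid lectins described below, among them Clec4a2 (2.96, 5.71 and 3.28 on untreated 1, 2 and 3).

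Clec12a encodes a receptor of granulocytes, monocytes and dendritic cells that senses uric acid crystals and dampens activation. It had 8.43, 9.03 and 9.15 on the mTORi-HDL arrays, against 7.97, 8.49 and 7.23 on the untreated arrays. The groups overlapped only because untreated 2 lay slightly above mTORi-HDL 1. The means were 8.87 ± 0.39 with mTORi-HDL and 7.89 ± 0.63 without treatment (SD, n = 3 each). The log2 fold change was 0.97 ± 0.39 (SE), or 1.96 times, with a 95% interval of 1.04 to 3.71 times (limma, unadjusted p = 0.0402, adjusted p = 0.890). Without mTORi-HDL 1 it was 1.20 ± 0.38 (SE; limma, unadjusted p = 0.0163, adjusted p = 0.534), and the groups did not overlap.

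**Figure D2:**
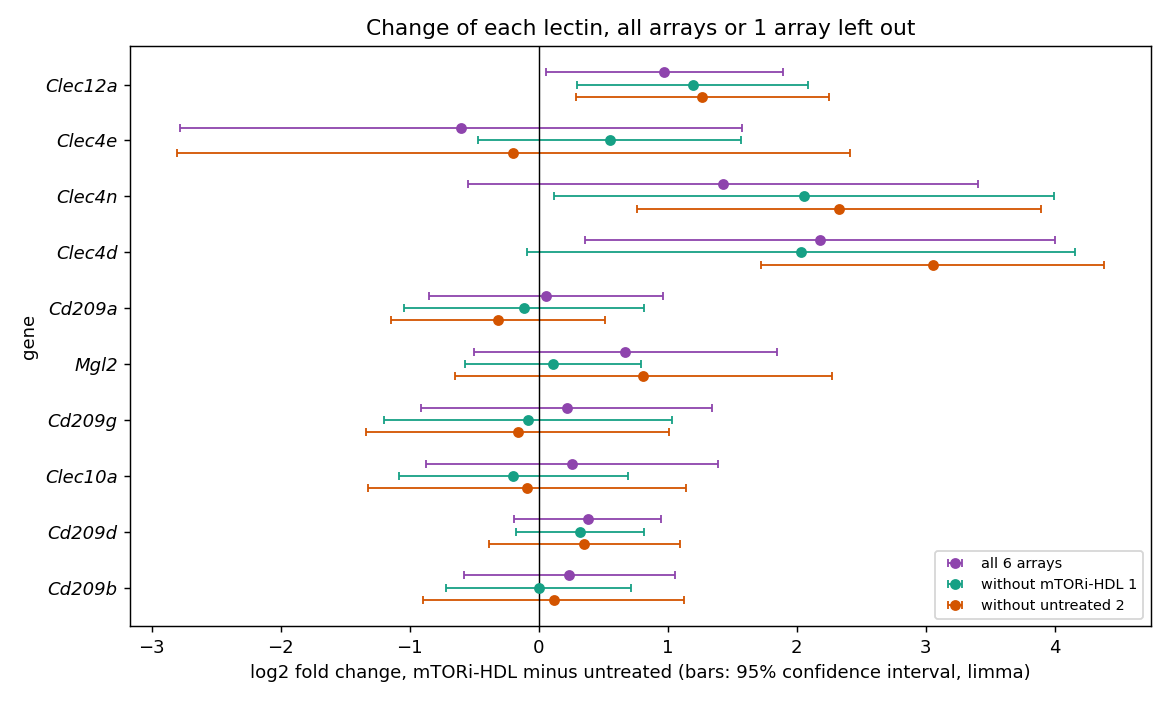
Log2 fold change of each lectin (x axis, mTORi-HDL minus untreated) with its 95% confidence interval from limma, over all 6 arrays and with mTORi-HDL 1 or untreated 2 left out. The estimates of Clec4d, Clec4n, Clec12a, Mgl2 and Cd209d lie right of 0 in all 3 fits, the interval in all 3 only for Clec12a, and Clec4e changes sign without mTORi-HDL 1 (-0.60 over 6 arrays, 0.55 without it).

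Cd209a, a mouse homologue of human DC-SIGN known from monocyte-derived dendritic cells, was the only Cd209 member above the receptor genes' 95th percentile, on all 6 arrays. It had 6.20, 5.78 and 5.60 on the mTORi-HDL arrays, against 6.05, 5.05 and 6.30 on the untreated arrays. The highest and the lowest value were both in the untreated group. The log2 fold change was 0.06 ± 0.39 (SE; limma, adjusted p = 0.981), and the 95% interval of 0.555 to 1.95 times does not show that the groups were alike. A second probe set of Cd209a was dimmer, with 4.69, 5.17 and 4.43 on the mTORi-HDL arrays, against 4.38, 4.03 and 4.61 on the untreated arrays. In a fit over all single-gene probe sets it had a log2 fold change of 0.42 ± 0.31 (SE; limma, adjusted p = 0.894). The probe sets differed in sign without mTORi-HDL 1, at -0.11 for the brighter and 0.46 for the dimmer one.

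Cd209d encodes SIGNR3, a mannose- and fucose-binding homologue. It had 3.26, 3.08 and 3.08 on the mTORi-HDL arrays, against 2.69, 2.71 and 2.88 on the untreated arrays. It was the 1 lectin whose groups did not overlap over 6 arrays, at a log2 fold change of 0.38 ± 0.24 (SE; limma, unadjusted p = 0.161, adjusted p = 0.890). These levels were dim, and 66.6% of the odorant and vomeronasal receptor genes had a lower mean. With mTORi-HDL 1 left out its log2 fold change was 0.32 ± 0.21 (SE; limma, adjusted p = 0.845).

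Cd209b encodes SIGNR1, known from macrophages of the splenic marginal zone. It had 3.22, 2.49 and 2.51 on the mTORi-HDL arrays, against 3.02, 2.25 and 2.23 on the untreated arrays. Replicate 1 was the highest array in each group. Its log2 fold change was 0.24 ± 0.35 (SE; limma, adjusted p = 0.904). Cd209g, a further homologue, had 4.37, 3.95 and 2.97 on the mTORi-HDL arrays, against 4.12, 2.78 and 3.72 on the untreated arrays, with a log2 fold change of 0.22 ± 0.48 (SE; limma, adjusted p = 0.932). Leaving out mTORi-HDL 1 gave -0.00046 ± 0.30 for Cd209b and -0.08 ± 0.47 for Cd209g (SE). Both genes overlapped between groups, and neither exceeded the receptor genes' 95th percentile on any array.

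Clec10a and Mgl2 encode the galactose-type lectins MGL1 and MGL2, which bind terminal galactose or N-acetylgalactosamine and mark macrophages exposed to IL-4. Clec10a had 4.21, 3.01 and 2.70 on the mTORi-HDL arrays, against 3.47, 2.35 and 3.32 on the untreated arrays. Mgl2 had 5.10, 3.57 and 3.28 on the mTORi-HDL arrays, against 3.46, 3.59 and 2.88 on the untreated arrays. In both genes mTORi-HDL 1 was the highest of 6 arrays and the rest overlapped. The log2 fold changes were 0.26 ± 0.48 for Clec10a and 0.67 ± 0.50 for Mgl2 (SE; limma, adjusted p = 0.920 and 0.890). Without mTORi-HDL 1 they were -0.20 ± 0.37 and 0.11 ± 0.29 (SE; limma, adjusted p = 0.965 and 0.976). Neither exceeded the receptor genes' 95th percentile on any array, mTORi-HDL 1 included.

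With mTORi-HDL 1 left out, 0 of 10 lectins passed the adjusted test, where 0.0% of all genes did, and 2 were at an unadjusted p under 0.05 (Clec4n and Clec12a, both higher). Of all genes 6.97% were then at that level, 3.47% as higher and 3.51% as lower. The groups did not overlap for 3 lectins, Clec4n, Clec12a and Cd209d, all higher, against 22.3% of all genes in either direction and 9.75% as higher. Then 6 of 10 fold changes were above 0, against 46.6% of those of all genes. The other sample on which the Clec4 genes turned was untreated 2. Without it, 3 lectins were at an unadjusted p under 0.05, Clec4d, Clec4n and Clec12a, all higher, against 2.95% of all genes and 0.92% as higher. The same 3 and Cd209d then did not overlap, against 17.9% of all genes and 8.76% as higher, and again 0 passed the adjusted test (0.0% of all genes). The log2 fold change without untreated 2 was 3.05 for Clec4d, 2.33 for Clec4n and 1.27 for Clec12a. The labels give no ground for leaving that sample out, so these values show only how much rests on it. A fit without both mTORi-HDL 1 and untreated 2, tried after the lectins' own values had been seen, gave 4 of 10 at an unadjusted p under 0.05 (7.78% of all genes) and 7 of 10 without overlap (37.6% of all genes), with 0 past the adjusted test (0.0% of all genes). Because untreated 2 was picked for its lectin values, those counts are no support for a difference.

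As the mean difference from the untreated mean, the 18 measured macrophage markers lay at -0.48, 0.65 and 1.26 on the mTORi-HDL arrays, against 0.12, 0.16 and -0.28 on the untreated arrays. On that scale Clec12a was at 0.53, 1.13 and 1.26 on the mTORi-HDL arrays, against 0.08, 0.59 and -0.67 on the untreated arrays. Of these markers 5 were higher at an unadjusted p under 0.05 and 0 lower, led by the Fc receptors Fcgr1 and Fcgr3 and the complement gene C1qc. The 16 neutrophil markers lay at 0.63, 0.00 and 0.25 on the mTORi-HDL arrays, against -0.33, 0.44 and -0.11 on the untreated arrays, and 0 of them were at an unadjusted p under 0.05. Among the untreated arrays 6 of these 16 genes were highest on untreated 2 and lowest on untreated 1, the order of the Clec4 genes, and 6 were highest on untreated 1. The order of the Clec4 genes was also that of 3161 of all 22180 genes, of 6 of 15 T cell markers and of 0 of 9 NK cell markers. Like the neutrophil mean, the means of the monocyte markers, the Syk-CARD9 outputs and the fibroblast markers were highest on untreated 2 and lowest on untreated 1. For the fibroblast markers these 2 means were 0.07 and -0.07. S100a8, a calprotectin subunit, had 7.86, 6.35 and 8.92 on the mTORi-HDL arrays, against 7.02, 9.57 and 7.68 on the untreated arrays, while Ly6g, the defining neutrophil marker, stayed at 2.97 to 3.71, within the receptor genes' range. Mmp9, Elane and Mpo had the smallest p of that list, with log2 fold changes of 0.65, 0.68 and 0.42 over 6 arrays, and of 0.39, 0.26 and 0.25 without mTORi-HDL 1. The part of these cell types in the lectin values was not tested.

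The 11 monocyte markers lay at -0.73, -0.10 and 0.91 on the mTORi-HDL arrays, against -0.21, 0.42 and -0.21 on the untreated arrays. Ly6c2, the classical monocyte marker, had 5.09, 7.92 and 8.13 on the mTORi-HDL arrays, against 8.85, 8.51 and 8.71 on the untreated arrays, so all treated arrays were lower. Fn1, the fibronectin gene and the smallest p of that list, went the other way, with 4.53, 6.30 and 9.54 on the mTORi-HDL arrays, against 4.18, 4.10 and 4.51 on the untreated arrays (log2 fold change 2.53 ± 1.10, SE; limma, adjusted p = 0.890). F13a1, the gene of a coagulation factor subunit, had a log2 fold change of 0.85 ± 0.44 (SE). The 18 dendritic cell markers lay at -0.58, 0.74 and 0.53 on the mTORi-HDL arrays, against 0.07, -0.10 and 0.04 on the untreated arrays. At an unadjusted p under 0.05, 1 of these 18 was higher, Batf3, and 1 lower, Itgae. Their log2 fold changes were 1.65 ± 0.35 and -1.11 ± 0.44 (SE; limma, adjusted p = 0.696 and 0.890). With mTORi-HDL 1 left out they were 1.44 and -0.72. Flt3, a dendritic cell growth factor receptor, had 5.03, 6.83 and 5.94 on the mTORi-HDL arrays, against 4.71, 5.00 and 5.11 on the untreated arrays. Zbtb46, a factor of conventional dendritic cells, stayed at 3.62 to 4.34. The 15 T cell markers lay at -2.44, -0.998 and -1.08 on the mTORi-HDL arrays, against -0.01, 0.21 and -0.20 on the untreated arrays, and 11 of them were lower at an unadjusted p under 0.05. The medians of the log2 fold change were 0.42 for macrophage, 0.30 for neutrophil, 0.05 for monocyte, 0.32 for dendritic cell and -1.49 for T cell markers, and of these 5 lists 0 genes passed limma's adjusted test. Without mTORi-HDL 1 these medians were 0.98 for macrophage, -0.015 for neutrophil, 0.04 for monocyte, 0.50 for dendritic cell and -0.97 for T cell markers. At an unadjusted p under 0.05, 9 macrophage, 6 dendritic cell, 2 neutrophil and 2 monocyte markers were then higher. In that fit 12 T cell markers and 1 monocyte marker were lower. Of all genes 3.47% were then higher and 3.51% lower at that level. Over 6 arrays, counts of list genes at an unadjusted p under 0.05 stand here and below against 1.57% of all genes as higher and 3.07% as lower.

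The remaining marker lists also held 0 genes past the adjusted test. NK cell markers had a median log2 fold change of -0.82, with 2 of 9 lower at an unadjusted p under 0.05, and B cell markers one of -0.54, with 2 of 8 lower. Without mTORi-HDL 1 the NK cell median was -0.18 and the B cell median -0.42. Ncr1, the defining NK cell marker, averaged 7.28 ± 1.38 on the mTORi-HDL arrays and 7.34 ± 0.64 on the untreated arrays (SD, n = 3 each). Fibroblast markers had a median of 0.76, and 4 of 12 had a higher mean at that unadjusted level, among them the matrix gene Dcn at 6.67, 8.22 and 7.14 on the mTORi-HDL arrays, against 5.29, 5.38 and 4.70 on the untreated arrays. Mast cell and basophil markers had a median of 0.60 with 3 of 10 higher, cardiomyocyte markers 0.34 with 2 of 10 higher, and endothelial markers 0.17 with 0 of 11 at that level. Without mTORi-HDL 1 the medians were 0.74 for fibroblast, 0.54 for mast cell and basophil, 0.22 for cardiomyocyte and 0.04 for endothelial markers.

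**Figure D3:**
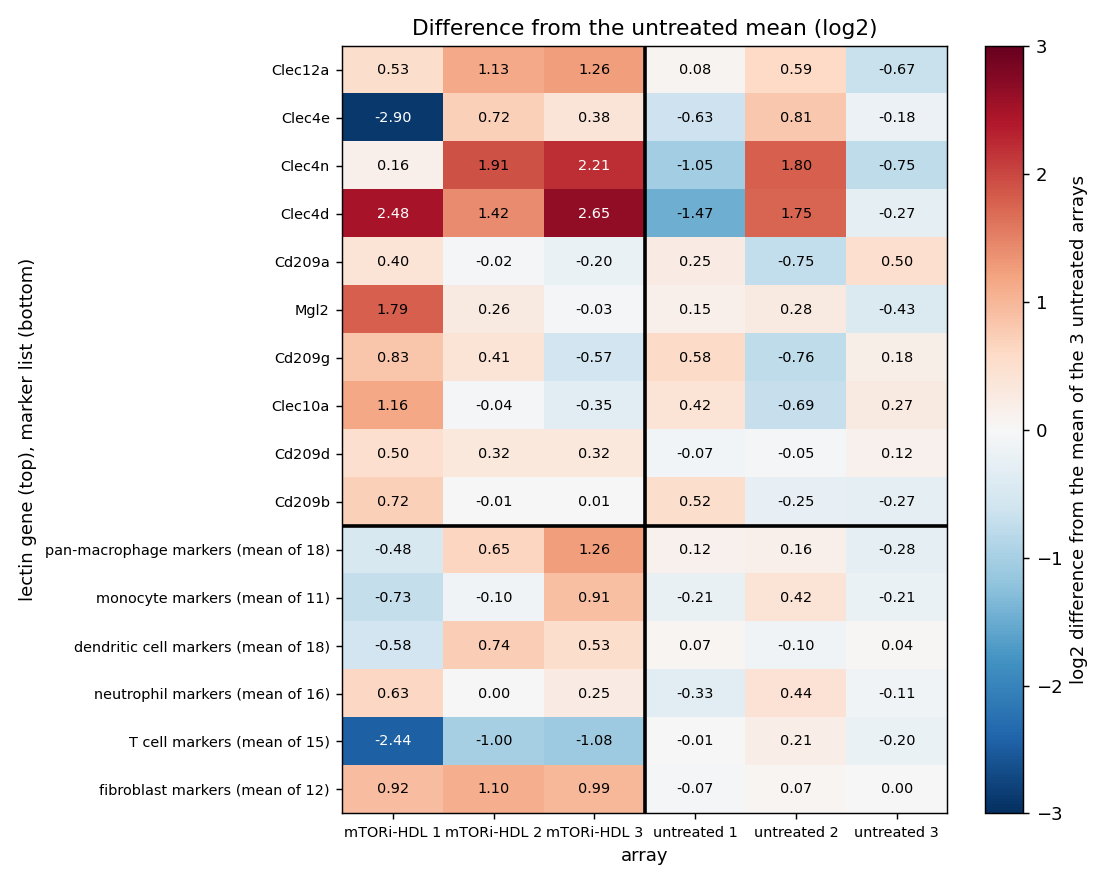
Difference from the mean of the 3 untreated arrays, in log2 units, for each lectin (top) and for the mean of each marker list (bottom), with mTORi-HDL arrays on the left and untreated arrays on the right. The Clec4 genes are high on untreated 2 (1.75 for Clec4d, 1.80 for Clec4n, 0.81 for Clec4e), T cell markers are low on each treated array, and Clec4e is at -2.90 on mTORi-HDL 1.

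Genes with the most similar array pattern were sought for the 4 lectins whose values spanned at least 2 log2 units, by the mean absolute difference of gene-centred values over the 6 arrays. For Clec4d they were the neutrophil-attracting chemokine Cxcl2 (0.43), the small heat shock protein gene Cryab (0.47) and the acute-phase gene Saa3 (0.57). Cxcl2 had 9.64, 8.50 and 8.87 on the mTORi-HDL arrays, against 6.95, 8.68 and 6.92 on the untreated arrays, with the same high untreated 2. For Clec4n they were Plxdc2 (0.23), the heparanase gene Hpse (0.25) and again Cryab (0.40). Hpse had 6.81, 8.35 and 8.58 on the mTORi-HDL arrays, against 5.97, 8.13 and 5.18 on the untreated arrays. For Clec4e they were Zfp131, Chm and Ehd1 (0.18 each), all low on mTORi-HDL 1. For Mgl2 they were 1700073E17Rik (0.06), Olfr866 (0.09) and Tfap2b (0.09), of which Olfr866 is an odorant receptor gene.

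**Figure D4:**
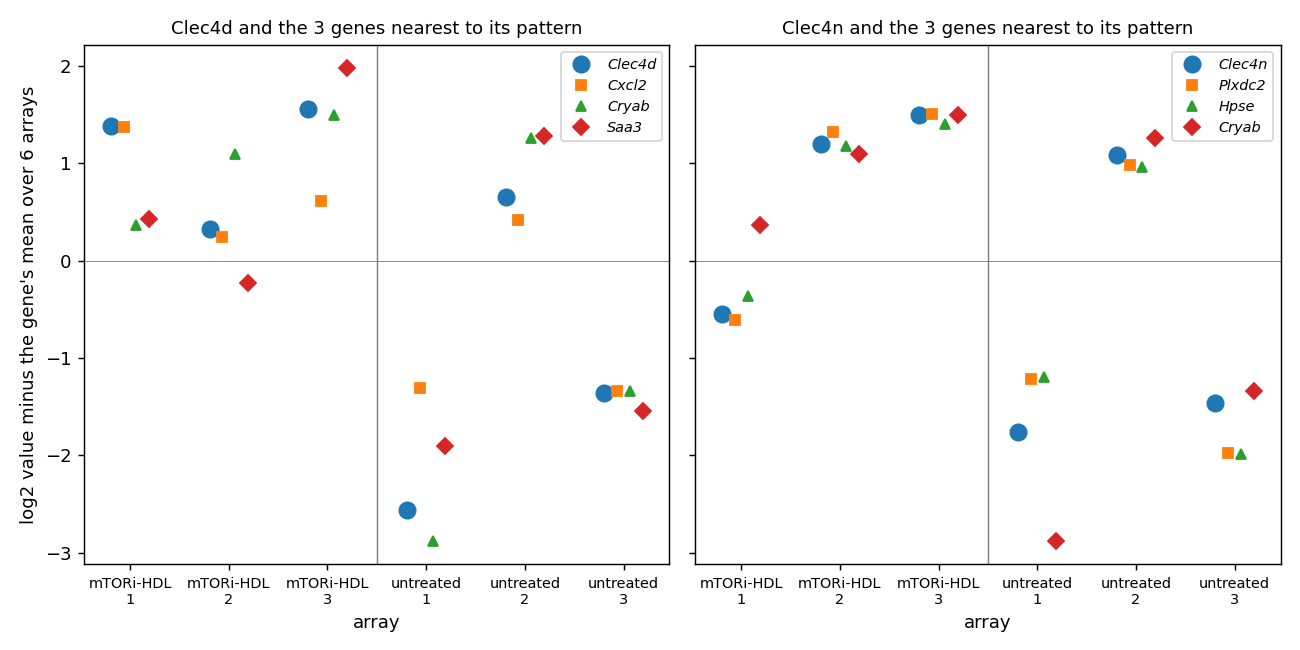
Log2 value minus the gene's mean over 6 arrays (y axis) on each array (x axis) for Clec4d (left) and Clec4n (right), each with the 3 genes closest in pattern. In both panels untreated 2 lies above each gene's mean and untreated 1 and 3 below it, and in the right panel Clec4n is below its mean on mTORi-HDL 1.

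Other C-type lectin genes of myeloid cells were set beside the 10. Of 30 listed 27 were measured, and at an unadjusted p under 0.05 there were 2 with a higher and 0 with a lower mean (1.57% and 3.07% of all genes). The adjusted test passed 0 of them, and the median log2 fold change was 0.23. The first was Olr1, a receptor for oxidised lipoprotein, at 6.84, 5.74 and 7.29 on the mTORi-HDL arrays, against 4.76, 4.24 and 4.34 on the untreated arrays. The other was Mrc1, the mannose receptor, at 4.85, 5.66 and 5.49 on the mTORi-HDL arrays, against 4.58, 3.25 and 4.60 on the untreated arrays. Both had no overlap between groups. Cd69, an activation marker of lymphocytes, had a log2 fold change of -1.58 ± 0.75, and Cd302 one of 0.54 ± 0.31 (SE; limma, adjusted p = 0.890 for each). Without mTORi-HDL 1 they were -0.68 for Cd69 and 0.53 for Cd302.

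Among the genes that carry lectin signals, 22 of 26 were measured, and at an unadjusted p under 0.05 there were 0 with a higher and 1 with a lower mean, none past the adjusted test. The lower one was Hcst, which encodes the adaptor DAP10 of killer cell and other activating receptors, at 9.84 ± 0.42 with mTORi-HDL and 10.92 ± 0.10 without treatment (SD, n = 3 each). Fcer1g, the common gamma chain used by Mincle and dectin-2, had 10.81, 11.06 and 11.28 on the mTORi-HDL arrays, against 10.88, 10.63 and 10.55 on the untreated arrays. Card9 had a log2 fold change of 0.45 ± 0.29, and Ptpn11, a phosphatase gene, one of -1.19 ± 0.69 (SE; limma, adjusted p = 0.890 for each). Without mTORi-HDL 1 they were 0.38 for Card9 and -0.32 for Ptpn11. The list had a median log2 fold change of -0.23 over 6 arrays and of 0.33 without mTORi-HDL 1, and on that array its mean difference from the untreated mean was -1.33.

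Of 17 cytokines and chemokines that the Syk-CARD9 route can induce, there were 2 higher and 0 lower at an unadjusted p under 0.05, none past the adjusted one, and a median log2 fold change of 0.13. They were the neutrophil-attracting chemokine genes Cxcl2, with the array values given above and a log2 fold change of 1.48 ± 0.54, and Cxcl1, with 0.76 ± 0.33 (SE; limma, adjusted p = 0.890 for each). Ccl3 and Il10 had log2 fold changes of -1.90 ± 0.86 and -1.60 ± 0.84 (SE; limma, adjusted p = 0.890 for each), and of -0.86 and -0.65 without mTORi-HDL 1. Of 20 genes that respond to IL-4 in macrophages, there were again 2 higher and 0 lower, none past the adjusted test, and a median of 0.45. They were Mmp12, the macrophage elastase, and Retnla, a secreted marker of alternative activation, at 10.55, 7.55 and 6.12 on the mTORi-HDL arrays, against 4.63, 6.56 and 5.22 on the untreated arrays. The value of 10.55 was on mTORi-HDL 1, and without that array the log2 fold change of Retnla was 1.36 ± 0.64 (SE), against 2.60 ± 1.07 with it. Ccl17, a chemokine of dendritic cells, and Flt1 had log2 fold changes of 1.48 ± 0.84 and -0.66 ± 0.31 (SE; limma, adjusted p = 0.890 for each).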

How the data were processed

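Log2 values of 41345 probe sets on 6 arrays, as deposited, came from the authors' RMA step in Affymetrix Expression Console (submitters' processing notes); versions and the array's build are not given in the sources used here. The labels state an input of 15 ng RNA per array. The platform annotation gave 1 symbol to 23521 probe sets, several to 1814 and none to 16010. Only the first kind was used, the brightest per gene. Groups came from the labels. The test was limma's (version 3.58.1, run in R 4.3.3), fitted with no covariate beside treatment, two-sided, and adjusted by Benjamini-Hochberg over 22180 genes without a filter. It was also run on simulated data in which each gene had the same spread on every array. Those data held no array like mTORi-HDL 1, so they do not show how the test performs with such an array. Fold changes are mTORi-HDL minus untreated. The number of arrays limits the precision. The companion lists had 241 entries, of which 224 were measured. Named genes were the 10 lectins, up to 4 genes per companion list and up to 3 per marker list by smallest p, each list's defining markers, and the 3 genes closest in pattern to each lectin spanning at least 2 log2 units. The members and lists were chosen with earlier results of these data known. Alternatives were other scalings, a filter on dim genes, array weights, a variance trend, the replicate number as a block, averaging probe sets, an adjusted p of 0.1, and leaving out each array. A pair of alternatives was added after seeing the data: the dimmer Cd209a probe set, and a fit without both mTORi-HDL 1 and untreated 2. Start regions came from RefSeq tables of GRCm38.p6. Protein sequences were not used here.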

Additional observations from a re-analysis of the deposited data

How the results depend on the processing

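The count of lectins past limma's adjusted threshold was 0 of 10 under every alternative run, also at an adjusted p of 0.1. Clec4d, Clec4n, Clec12a and Mgl2 kept a positive log2 fold change under all 15 of their alternatives, the lowest being 1.45, 0.90, 0.50 and 0.11. The count at an unadjusted p under 0.05, 2 as reported, was 1 after median centring, after subtracting each array's macrophage marker mean and with a variance trend (4.78%, 6.42% and 4.14% of all genes). The call lost in each of these was that of Clec12a. It was 3 with quantile normalization and with array weights (4.54% and 7.97% of all genes), where Clec4n was added. The count lay between 0 and 3 with 1 array left out, and was 0 without mTORi-HDL 3, without untreated 1 or without untreated 3 (6.34%, 3.18% and 2.77% of all genes). The count that did not overlap, 1 as reported, was 0 after the macrophage subtraction (12.6% of all genes). It was also 0 with the filter on dim genes, which removed Cd209d (11.8% of the genes kept). With 1 array left out it lay between 1 and 4, where 17.9% to 22.8% of all genes did not overlap. With quantile normalization the 1 such lectin was Clec12a in place of Cd209d (11.4% of all genes). The macrophage subtraction moved the median of all genes to -0.40 and that of the lectins to -0.16, and turned Cd209a (-0.42), Cd209b (-0.24), Cd209d (-0.095), Cd209g (-0.25) and Clec10a (-0.22). Median centring turned Cd209a (-0.047) and the monocyte list's median (-0.055). Array weights turned Cd209a (-0.15), Cd209g (-0.15), Clec4e (0.41) and Clec10a (-0.19). With 1 array left out, Cd209a ranged from -0.32 to 0.31, Cd209b from -0.00046 to 0.50, Cd209g from -0.16 to 0.62, Clec4e from -1.26 to 0.55 and Clec10a from -0.20 to 0.56. Without mTORi-HDL 1 the signalling list's median was 0.33 and the neutrophil list's -0.015. The cause of these turns was not tested.

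One setting was chosen after the lectins' own values had been seen, and untreated 2 was picked because the Clec4 genes were high there, so its values are no support for any difference. Without both mTORi-HDL 1 and untreated 2, which leaves 2 arrays a group, 4 lectins were at an unadjusted p under 0.05 (7.78% of all genes), 7 did not overlap (37.6% of all genes) and 0 passed the adjusted test (0.0% of all genes). The log2 fold changes there were 2.96 for Clec4n, 2.91 for Clec4d, 1.49 for Clec12a and 0.95 for Clec4e, and -0.49 for Cd209a, -0.12 for Cd209b, -0.46 for Cd209g and -0.54 for Clec10a, of which the last 4 and Clec4e turned sign.

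The labels do not say whether arrays with the same replicate number belong together. Deviations from the group means correlated at 0.14, 0.13 and -0.02 for same-numbered arrays, and at -0.16 to 0.13 for differently numbered ones. With 3 arrays a group these correlations cannot decide the question. With the replicate block 0 lectins passed the adjusted test and 2 were at an unadjusted p under 0.05 (5.33% of all genes). These were Clec4d and Clec4n, with Clec12a lost and Clec4n gained (limma, adjusted p = 0.847 for each). The groups did not overlap for 1 lectin (10.9% of all genes), and the lectins' median log2 fold change was 0.32. Signal limits what can be said of 5 of the 10 genes, which did not exceed the 95th percentile of the receptor genes on any array.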

Other observations

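Cd209c, a further homologue in the Cd209 cluster, was looked at after its values had been seen. Its brighter probe set had 7.17, 8.51 and 8.37 on the mTORi-HDL arrays, against 8.43, 8.93 and 8.52 on the untreated arrays. Its dimmer probe set had 4.44, 3.95 and 3.75 on the mTORi-HDL arrays, against 4.37, 3.58 and 3.62 on the untreated arrays, within the range of odorant receptor genes. The transcripts that the probe sets read were not analysed here. Clec5a, a myeloid lectin that signals through DAP12, was also picked after its values had been seen. It had 2.98, 5.62 and 6.79 on the mTORi-HDL arrays, against 3.71, 4.54 and 3.003 on the untreated arrays, so both treated arrays other than mTORi-HDL 1 lay above all untreated ones.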
